A study of Mus musculus with 6 samples.

Results

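The genes described here encode 10 subunits of the Polycomb repressive complexes PRC2 and PRC1: Ezh1, Ezh2, Suz12, Eed and Jarid2 of PRC2, and Ring1, Rnf2, Bmi1, Cbx8 and Kdm2b of PRC1. They were chosen by name, as well-known parts of these complexes, out of 24813 gene symbols in the deposited tables. The choice was made with earlier results of these data known. All 10 had values in both the FPKM table and the count table. RNA-seq was performed on cultured mouse cells labelled as female germline stem cells (FGSCs), with 3 control samples and 3 samples in which the chromatin-folding protein CTCF was knocked down with a short hairpin RNA (shCTCF). Per the labels, the strain of all 6 samples was C57BL/6, the passage number was above 20, and the cells were grown on mitotically inactivated STO fibroblast feeders. Per the study's methods, FGSCs were derived from neonatal ovaries of Ddx4-Cre; mT/mG mice, in which Cre follows the germ cell gene Ddx4, and a single hairpin sequence against CTCF was delivered by lentivirus. What the control cells received is not given in the labels. No label says whether the samples of a group came from separate cultures, so the p-values measure the spread between these samples, which may be technical.

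Polycomb proteins keep genes silent by modifying histones. PRC2 places methyl groups on lysine 27 of histone H3, with EZH2 or its paralog EZH1 as the enzyme and SUZ12 and EED as the obligate scaffold and reader subunits. PRC1 places ubiquitin on histone H2A through RING1 or RNF2 (RING1B), each paired with 1 of the PCGF proteins, of which BMI1 is one; the CBX proteins of canonical PRC1 bind the mark made by PRC2, while KDM2B brings a variant PRC1 to unmethylated CpG islands. Germ cells are known to depend on both complexes for the control of developmental genes.

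Total counts lay between 1686052 and 7044272 per sample, and control replicate 2 was the smallest library by a wide margin. Ctcf fell from 55.9 ± 2.34 FPKM (SD, n = 3) to 0.64 ± 0.0956 FPKM (n = 3). Ctcf did not enter the test on counts, so the size of this fall rests on FPKM alone. Its log2 fold change was −5.12 (SE 0.0863, adjusted p = 1.1e-08, limma with Benjamini-Hochberg adjustment), and the exact two-sided permutation test of 3 against 3 samples cannot give a p below 0.1. The 9 germ cell markers looked at were at 0 FPKM in every control sample and no marker passed 0.207 FPKM in any sample. Of the 9, 5 were at 0 in all samples, so the labelled cell type was not visible in these markers on FPKM. For its cultured FGSCs the study reported RT-PCR signals of Dazl, Gfra1 and other germline genes, and staining of the germ cell protein MVH. The 12 mast and myeloid markers summed to between 1507 and 1551 FPKM in control and between 1685 and 1748 FPKM in shCTCF, with Kit, Gata2 and Ptprc among the genes above 100 FPKM on average in both groups. Within that list Cpa3, a mast cell protease, went from 281 ± 56.7 to 88.0 ± 13.1 FPKM and Hdc, the enzyme that makes histamine, from 4.25 ± 0.219 to 87.2 ± 7.58 FPKM, while Fcer1a, Ms4a2, Itgam and Mpo did not pass 0.217 FPKM in any sample. The 12 fibroblast markers summed to 10.3 to 10.9 FPKM in control and 23.5 to 24.7 FPKM in shCTCF, and 7 of them, Col1a1 included, were below 1 FPKM in all samples. Col6a1 went from 0.144 to 15.3 FPKM on average, whereas Pdgfrb went from 6.09 to 2.16 FPKM and Dcn from 2.71 FPKM to a listed 0. Their part in the results on Polycomb genes was not tested, and in bulk samples fewer cells of a type and less RNA per cell cannot be told apart.

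Knockdown changed a large part of the transcriptome. On FPKM, a unit scaled to transcript length and sequencing depth, 73.0% of the 9976 genes tested passed an adjusted p of 0.05 (limma), 28.8% as higher and 44.2% as lower in shCTCF. All 10 Polycomb members passed the filter of 1 FPKM on the mean. Among them 5 were lower (Suz12, Jarid2, Ring1, Cbx8 and Kdm2b), 0 were higher and 5 did not pass the test (Ezh1, Ezh2, Eed, Bmi1 and Rnf2). This number is near the share of all genes, and the members are therefore described one by one. The values of the groups did not overlap for 6 of the 10 members, against 76.6% of all genes tested. The median log2 fold change was −0.41 over the members and −0.17 over all genes tested. That shift of the whole table bears on the small differences, and when every sample was scaled to the same median, 34.9% of genes were called higher and 36.1% lower, and the median over all genes became −0.01.

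Within PRC2 the levels of the enzymes did not pass the test, whereas the scaffold gene Suz12 was lower. The gene of the main enzyme, Ezh2 (mm9 chr6:47480273-47545029, minus strand), was at 48.7, 37.5 and 48.8 FPKM in control and at 43.4, 46.9 and 49.0 FPKM in shCTCF. The groups overlapped, and the lowest value was that of control replicate 2. The log2 fold change was 0.05 (95% interval −0.21 to 0.32, adjusted p = 0.69, limma), and without control replicate 2 it was −0.07 (adjusted p = 0.32, limma).

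Suz12 (mm9 chr11:79806608-79847625, plus strand) was at 51.0, 24.8 and 47.9 FPKM in control. In shCTCF it was at 17.3, 18.1 and 20.0 FPKM. Every shCTCF sample was below every control sample, but control replicate 2 lay much closer to shCTCF than to the other controls. The mean was lower by 55.2% (log2 fold change −1.05, SE 0.246, adjusted p = 0.0054, limma). Without control replicate 2, whose library was the smallest, the log2 fold change was −1.37 (adjusted p = 1.37e-06, limma).

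The stretches of 150 bases before the transcription starts of Ezh2 and Suz12 are shown because these genes encode neighbouring subunits of a single complex, of which Suz12 passed the test and Ezh2 did not. They are from the RefSeq promoter table and were matched letter by letter in mm9, and are written 5′ to 3′ on the strand of the gene. In Ezh2, which is continued for 15 bases past the start (mm9 chr6:47545015-47545179, minus strand), the capitals mark a word of the E2F type. The 16 CpG dinucleotides of this stretch are left unmarked. In Suz12 (mm9 chr11:79806458-79806607, plus strand), the capitals mark its 23 CpG dinucleotides. The marks thus show different features and are not a contrast in CpG between the genes. Whether either feature has a part in the levels was not tested.
Ezh2: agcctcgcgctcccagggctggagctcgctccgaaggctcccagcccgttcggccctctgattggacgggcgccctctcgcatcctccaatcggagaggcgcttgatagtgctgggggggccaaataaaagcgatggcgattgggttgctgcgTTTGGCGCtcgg
Suz12: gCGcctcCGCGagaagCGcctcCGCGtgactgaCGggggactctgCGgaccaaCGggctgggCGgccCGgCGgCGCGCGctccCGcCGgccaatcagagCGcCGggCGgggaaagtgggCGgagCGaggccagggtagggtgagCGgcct

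The promoter table holds 14 windows for the members, from 250 bases before to 50 bases after a start, and at least 1 window for each of the 10 genes. Those of Kdm2b overlap in part. The E2F words TTTCGCGC and TTTGGCGC, searched on both strands, were found in 1 of these windows, that of Ezh2 with the word starting at base 4 of the transcript, and in 0.813% of all 32851 promoters of the table. The CTCF core words CAGGGGGC and CAGGTGGC, searched on both strands, were found in 0 of the 14 windows and in 4.68% of all promoters. The absence of these letters says nothing about binding of CTCF. The member windows were rich in CpG, with between 17 and 49 CpG and a median of 26 per 300 bases, against a median of 7 over all promoters of the table.

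The remaining core genes of PRC2 did not pass the test on FPKM. Eed (mm9 chr7:97103164-97129486, minus strand), which encodes the subunit that reads the methyl mark, was at 34.0, 29.6 and 30.8 FPKM in control and at 34.3, 33.5 and 34.4 FPKM in shCTCF. Ezh1 (mm9 chr11:101052429-101087777, minus strand), the paralog of Ezh2 known for its part in non-dividing cells, was at 5.81, 7.13 and 5.97 FPKM in control and at 6.39, 7.33 and 6.51 FPKM in shCTCF. The groups overlapped for both genes on the FPKM scale. Their log2 fold changes were 0.11 for Eed (95% interval −0.06 to 0.28, adjusted p = 0.2, limma) and 0.09 for Ezh1 (95% interval −0.16 to 0.33, adjusted p = 0.48, limma).

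The call for Eed depended on the scale. After scaling of the samples to the same median, Eed passed the test with a log2 fold change of 0.29 (adjusted p = 0.007, limma). On the count table its values were 139, 109 and 127 CPM (counts scaled to library size after TMM normalization) in control and 156, 152 and 152 CPM in shCTCF, without overlap. There the log2 fold change was 0.27 (SE 0.0917, adjusted p = 0.0186, edgeR), and with scaling by library size alone it was 0.10 (adjusted p = 0.32, edgeR). Ezh1 did not pass on the count table, with a log2 fold change of 0.23 (adjusted p = 0.0588, edgeR), and it passed there without control replicate 2 (0.28, adjusted p = 0.012, edgeR) and without shCTCF replicate 1 (0.28, adjusted p = 0.0491, edgeR). Eed lost its call on counts without shCTCF replicate 1 (0.27, adjusted p = 0.0595, edgeR).

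Jarid2 (mm9 chr13:44826143-45017012, plus strand), a DNA-binding cofactor that guides PRC2 to its sites, was lower in shCTCF. Its summed levels were 9.91, 11.1 and 8.96 FPKM in control and 4.67, 3.58 and 3.68 FPKM in shCTCF, so that every shCTCF sample was below every control sample. The mean was lower by 60.2% (log2 fold change −1.14, SE 0.122, adjusted p = 7.45e-05, limma). Of its 4 overlapping transcript rows 1 was listed at 0 FPKM in all samples, so the sum rested on 3 rows, and between samples the values moved from row to row. NM_021878 was at 2.84, 7.06 and 2.50 FPKM in control, and NM_001205043 was at 7.07, 2.12 and 5.06 FPKM. Tested alone, neither row passed (adjusted p = 0.0983 and 0.129, limma), while the sum over rows was steady within each group.

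**Figure D1:**
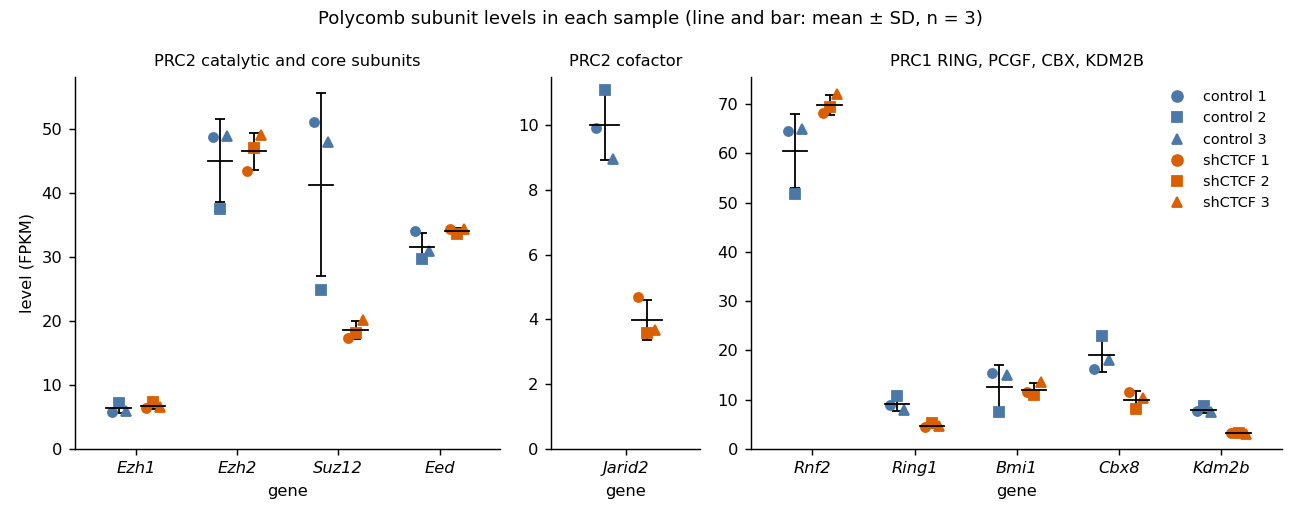
Levels (FPKM, linear axis from 0) of the 10 Polycomb subunit genes in 3 control (blue) and 3 shCTCF (orange) samples, with the replicate number by marker shape and the mean ± SD in black, and a separate vertical scale in each panel. Suz12, Jarid2, Ring1, Cbx8 and Kdm2b were lower in every shCTCF sample than in any control sample, and control replicate 2 (square) stands apart for Suz12, Bmi1, Ezh2 and Rnf2.

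In PRC1, of the paralogous ubiquitin ligase genes, Ring1 was lower and Rnf2 was not. Rnf2 (mm9 chr1:153316528-153348121, minus strand), the gene of RING1B and the most abundant of the 10 members, was at 64.5, 51.7 and 65.0 FPKM in control and at 68.1, 69.4 and 72.0 FPKM in shCTCF. All shCTCF values were above all control values. The log2 fold change of 0.21 did not pass the test (95% interval −0.01 to 0.44, adjusted p = 0.0768, limma), but it passed with a value of 0.39 after scaling to the same median (adjusted p = 0.0053, limma).

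Ring1 (mm9 chr17:34157737-34161625, minus strand) was at 8.86, 10.7 and 7.82 FPKM in control and at 4.32, 5.16 and 4.64 FPKM in shCTCF. Its groups did not overlap and the mean was lower by 48.3% (log2 fold change −0.82, SE 0.124, adjusted p = 0.000543, limma). On the count table it was also lower, from 36.7 ± 4.52 to 21.8 ± 2.04 CPM (SD, n = 3), which is −0.71 on the log2 scale (adjusted p = 0.000501, edgeR).

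Expressed as a share of the summed FPKM of both ligase genes, Ring1 made up 13.3% ± 3.34 in control and 6.31% ± 0.532 in shCTCF (SD, n = 3). The sum itself was 69.5 ± 6.15 FPKM and 74.5 ± 2.10 FPKM. The log2 ratio of Ring1 over Rnf2 was −2.86, −2.28 and −3.06 in the control samples and −3.98, −3.75 and −3.96 in the shCTCF samples. The groups did not overlap and differed by −1.16, with an exact two-sided permutation p of 0.1, the smallest that 3 against 3 samples allow, and 0.15 after adjustment over the 3 paralog pairs compared.

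The ratio of Ezh1 over Ezh2 overlapped between the groups. It was −3.07, −2.39 and −3.03 on the log2 scale in control and −2.76, −2.68 and −2.91 in shCTCF, a difference of 0.05 (exact permutation p = 0.9, adjusted 0.9). Ezh2 accounted for 87.5% ± 3.00 and 87.3% ± 0.905 of the summed FPKM of the enzyme genes (SD, n = 3).

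Bmi1 (mm9 chr2:18598645-18608256, plus strand), also named PCGF4, which supports the ligase in canonical PRC1, was at 15.4, 7.44 and 14.9 FPKM in control. In shCTCF it was at 11.6, 10.9 and 13.5 FPKM. Control replicate 2 was the lowest of all samples and the other controls the highest, so no difference could be read from the 3 against 3 samples (log2 fold change −0.01, 95% interval −0.58 to 0.56, adjusted p = 0.97, limma). Without control replicate 2 the log2 fold change was −0.32 (adjusted p = 0.0129, limma), in a fit in which 79.1% of all genes tested passed. The same library was lowest on the count table, at 48.5 CPM against 97.1 and 93.8 CPM in the other controls, and the log2 fold change without it was −0.18 there (adjusted p = 0.0508, edgeR).

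Pcgf2 encodes MEL18, the closest paralog of BMI1. It was at 10.8, 13.2 and 11.5 FPKM in control and 4.17, 6.08 and 4.95 FPKM in shCTCF, lower in every shCTCF sample (log2 fold change −1.09, SE 0.135, adjusted p = 0.000179, limma). The log2 ratio of Pcgf2 over Bmi1 was −0.52, 0.83 and −0.38 in control and −1.47, −0.84 and −1.44 in shCTCF. This was a difference of −1.23 without overlap (exact permutation p = 0.1, adjusted 0.15).

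Over the whole PCGF family, the summed level overlapped between the groups while the shares of 5 of the 6 genes did not. On FPKM itself the groups did not overlap for 76.6% of all genes tested. Shares of a sum are tied to each other, so a gene that rises lowers the shares of the rest. The 6 genes summed to 76.3, 65.4 and 77.5 FPKM in control and 73.7, 76.7 and 79.2 FPKM in shCTCF. In control each gene held a like share, from 14.6% ± 2.13 for Pcgf1 to 17.7% ± 2.45 for Pcgf3 (SD, n = 3). In shCTCF, Pcgf5 alone held 37.3% ± 0.915.

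Pcgf3 and Pcgf5, which define a pair of closely related variant PRC1 complexes, together made up 35.1%, 35.0% and 34.2% of the sum in control and 61.1%, 64.0% and 61.8% in shCTCF. Pcgf1 and Pcgf6, which define the variant complexes with KDM2B and with L3MBTL2, together went from 31.9% ± 1.44 to 15.4% ± 1.83. The canonical pair Pcgf2 and Bmi1 went from 33.4% ± 1.53 to 22.2% ± 0.939. These shares were chosen for display after the values were seen and are given as a description.

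Pcgf5 was the gene of the list of other PRC1 subunits with the largest rise. It was at 13.9, 9.58 and 14.3 FPKM in control and 27.1, 28.2 and 30.4 FPKM in shCTCF (log2 fold change 1.14, SE 0.145, adjusted p = 0.000201, limma). Pcgf3 was at 12.9, 13.4 and 12.2 FPKM in control and 18.0, 20.9 and 18.6 FPKM in shCTCF (log2 fold change 0.54, SE 0.0846, adjusted p = 0.000612, limma). Both were also higher on the count table, by a log2 fold change of 1.27 for Pcgf5 and 0.76 for Pcgf3 (adjusted p = 6.7e-07 and 4.27e-06, edgeR). Pcgf1 and Pcgf6, named here after their values were seen, were lower on FPKM, by −0.73 and −0.99 on the log2 scale (adjusted p = 0.000235 and 0.000161, limma), although Pcgf6 did not pass when only its most abundant row was used (−0.47, adjusted p = 0.37, limma).

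**Figure D2:**
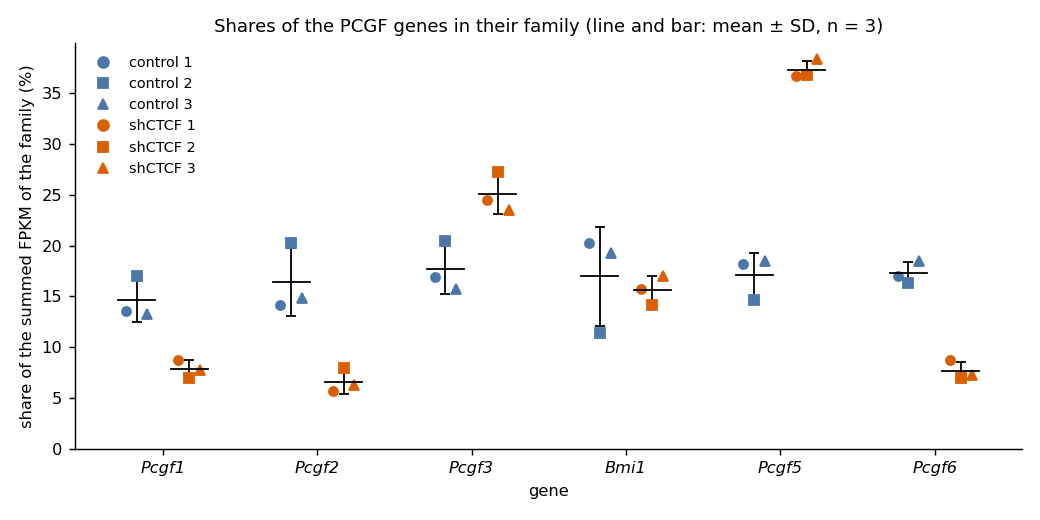
Share of each gene in the summed FPKM of its family (percent, linear axis from 0) for the 6 PCGF genes in 3 control (blue) and 3 shCTCF (orange) samples, with the mean ± SD in black. In control the PCGF genes held mean shares between 14.6% and 17.7%, and in shCTCF Pcgf5 reached 37.3% and Pcgf3 25.0%.

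Cbx8 (mm9 chr11:118899750-118902227, minus strand) encodes a chromodomain subunit that ties canonical PRC1 to methylated histone H3. It was at 16.2, 22.8 and 18.0 FPKM in control and at 11.5, 8.09 and 10.3 FPKM in shCTCF. The groups did not overlap, and the highest value was that of control replicate 2. The mean was lower by 47.6% (log2 fold change −0.87, SE 0.156, adjusted p = 0.00138, limma). On counts the values went from 45.4 ± 7.46 to 28.5 ± 4.29 CPM (SD, n = 3), with a log2 fold change of −0.62 (adjusted p = 0.0026, edgeR).

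Among the other chromodomain genes, Cbx2 was lower, with 4.01 ± 0.334 FPKM in control and 1.97 ± 0.291 FPKM in shCTCF (log2 fold change −0.76, adjusted p = 0.000664, limma). Cbx6 and Cbx7 did not pass on FPKM (−0.15 and 0.24, adjusted p = 0.19 and 0.17, limma), and the direction for Cbx6 turned to 0.02 after scaling to the same median, where Cbx7 passed as higher (0.37, adjusted p = 0.0479, limma).

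Kdm2b (mm9 chr5:123320681-123439108, minus strand) encodes a CpG-binding demethylase that anchors variant PRC1 at CpG islands. Its summed levels were 7.63, 8.73 and 7.46 FPKM in control and 3.21, 3.16 and 3.05 FPKM in shCTCF, the lowest of all 10 members in shCTCF. Every shCTCF sample was below every control sample. The mean was lower by 60.4% (log2 fold change −1.11, SE 0.0963, adjusted p = 2.42e-05, limma). On counts it fell from 13.0 ± 1.79 to 3.96 ± 1.45 CPM (SD, n = 3), a log2 fold change of −1.69 (SE 0.269, adjusted p = 0.000131, edgeR).

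The table lists 2 Kdm2b transcripts with different starts. The long one (NM_001003953, 23 exons) starts at base 123439108 of mm9 chromosome 5. The short one (NM_013910, 12 exons) starts downstream, at base 123350359. Only the long form carries the demethylase domain, which is well known for this gene. The long transcript was at 3.55, 5.45 and 3.78 FPKM in control and 1.17, 0.826 and 0.508 FPKM in shCTCF. The short transcript was at 4.07, 3.28 and 3.68 FPKM in control and 2.05, 2.34 and 2.54 FPKM in shCTCF.

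Both Kdm2b forms were lower in all shCTCF samples, and the long form had the larger log2 fold change, −1.52 (SE 0.24, adjusted p = 0.0029, limma over single rows) against −0.50 for the short form (SE 0.151, adjusted p = 0.0355, limma over single rows). The difference between the forms was not tested. In that fit 32.1% of the 13029 rows tested were called lower, and of the 10 members 4 had at least 1 row called lower. The first is a share of rows and the second of genes, and a gene with more rows had more chances to be called. The share of all genes with at least 1 row called lower was not computed. The count table gave a further reading of the long form, since 1856 of its 5173 exon bases belong to no other accession. It had 78, 27 and 83 counts in control and 27, 20 and 15 in shCTCF, with the 27 of control replicate 2 drawn from the smallest library. The short form had 202 such bases of 3519, with 7, 0 and 3 counts in control and 1, 2 and 0 in shCTCF. These are too few to read its level, so the contrast between the forms rests on FPKM. The 150 bases before each start are shown because the transcripts arise at separate CpG-rich sites, with CpG dinucleotides in capitals, 14 in the long stretch (mm9 chr5:123439109-123439258, minus strand) and 18 in the short one (mm9 chr5:123350360-123350509, minus strand).
Kdm2b long: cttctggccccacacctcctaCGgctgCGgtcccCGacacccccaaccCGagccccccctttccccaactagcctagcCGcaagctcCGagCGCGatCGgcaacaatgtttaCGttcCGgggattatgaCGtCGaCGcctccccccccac
Kdm2b short: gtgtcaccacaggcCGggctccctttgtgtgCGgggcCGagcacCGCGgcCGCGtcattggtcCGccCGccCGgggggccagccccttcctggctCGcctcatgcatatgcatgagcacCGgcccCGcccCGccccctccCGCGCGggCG

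Suz12 and Ezh2 were also listed as 2 overlapping transcripts each, and the value of each single row rests on how the reads were divided between them. The 16-exon Suz12 row (NM_199196) was at 42.8, 17.6 and 34.9 FPKM in control and 14.9, 18.1 and 16.5 FPKM in shCTCF, which overlapped and did not pass alone (log2 fold change −0.82, adjusted p = 0.0797, limma over single rows). The 15-exon row (NM_001163018) was at 8.20, 7.26 and 13.0 FPKM in control and 2.39, 0 and 3.52 FPKM in shCTCF, and was called lower (−2.04, adjusted p = 0.0314, limma over single rows). For Ezh2 the row of 2652 exon bases (NM_007971) was at 41.8, 33.5 and 48.8 FPKM in control and 43.4, 41.9 and 41.8 FPKM in shCTCF, with overlapping groups (0.05, adjusted p = 0.78, limma over single rows).

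**Figure D3:**
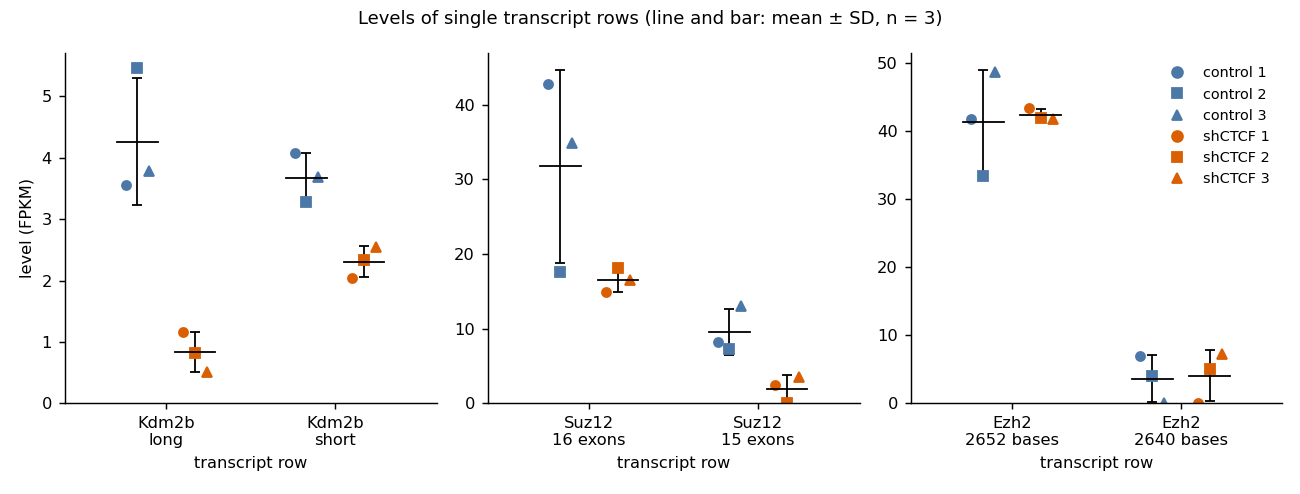
Levels (FPKM, linear axes from 0) of single transcript rows of Kdm2b (left), Suz12 (middle) and Ezh2 (right) in 3 control (blue) and 3 shCTCF (orange) samples, with the mean ± SD in black. Both Kdm2b rows were lower in every shCTCF sample, while the 16-exon Suz12 row overlapped between groups because of control replicate 2 at 17.6 FPKM.

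The count table could serve as a check for part of the list only. Fragments that overlapped exons of more than 1 accession were left uncounted there, and for Ezh2, Suz12 and Jarid2 between 0 and 1.6% of the exon bases of an accession were free of such overlap. These 3 genes had 0 to 2 counts per sample and were not tested on counts. Of the 7 members tested, 3 were lower (Ring1, Cbx8 and Kdm2b), 2 were higher (Eed and Rnf2) and 2 did not pass (Ezh1 and Bmi1). Of all 7341 genes tested on counts 69.1% passed (edgeR), 34.8% as higher and 34.3% as lower. With scaling by library size alone, 2167 genes were called higher and 3059 lower, and the members called higher were 1 in number.

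The count result for Rnf2 stands on few reads. It had 21, 2 and 17 counts in control and 26, 27 and 48 in shCTCF (log2 fold change 1.27, SE 0.329, adjusted p = 0.0043, edgeR). All of these came from exon bases unique to 3 alternative accessions, which were listed at 0 FPKM in every sample, and none from NM_011277, which held all of the Rnf2 FPKM. The value therefore does not measure the transcript that gave the FPKM level.

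**Figure D4:**
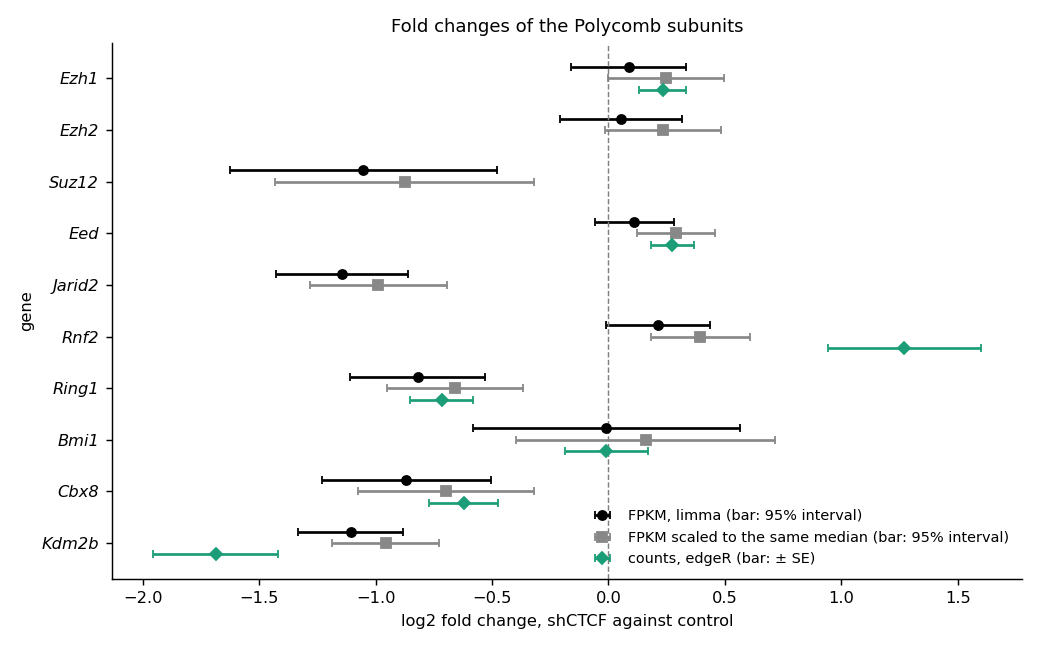
Log2 fold changes (horizontal axis, shCTCF against control) of the 10 members on log2(FPKM + 1) without (black circles) and with scaling to the same median (grey squares), each with its 95% interval, and on counts with ± SE (green diamonds) for the 7 genes that could be tested there. The intervals of Suz12, Jarid2, Ring1, Cbx8 and Kdm2b lie below 0 on both FPKM scales, and on FPKM those of Eed and Rnf2 lie above 0 only after scaling.

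The order of the members by level per transcript length changed in places. In control it ran Rnf2, Ezh2, Suz12, Eed, Cbx8, Bmi1, Jarid2, Ring1, Kdm2b and Ezh1, from 60.4 ± 7.49 down to 6.30 ± 0.719 FPKM (SD, n = 3). The ranges of neighbours overlapped for Ezh2 and Suz12, Suz12 and Eed, Bmi1 and Jarid2, Jarid2 and Ring1, and Ring1 and Kdm2b. In shCTCF it ran Rnf2, Ezh2, Eed, Suz12, Bmi1, Cbx8, Ezh1, Ring1, Jarid2 and Kdm2b, from 69.8 ± 1.98 down to 3.14 ± 0.0845 FPKM, with overlap for Bmi1 and Cbx8 and for Ring1 and Jarid2. Ezh1 was thus the lowest member in control and stood above Ring1, Jarid2 and Kdm2b in shCTCF.

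Of the 9 other PRC2 cofactors 8 were tested on FPKM, and 3 were higher and 4 lower, with a median log2 fold change of −0.14 against −0.17 for all genes. These are 37.5% higher and 50.0% lower, against 28.8% and 44.2% of all genes tested. The histone chaperones Rbbp4 and Rbbp7, which bind SUZ12 and also serve other complexes, were lower. Rbbp4 went from 56.8 ± 2.94 to 34.5 ± 0.568 FPKM (log2 fold change −0.70, adjusted p = 3.58e-05, limma) and Rbbp7 from 101.9 ± 8.12 to 66.3 ± 5.56 FPKM (−0.61, adjusted p = 0.000411, limma). The Polycomb-like genes, whose proteins help PRC2 to bind DNA, did not move one way. Phf19 went from 15.1 ± 1.96 to 8.19 ± 0.692 FPKM (−0.81) and Mtf2 from 28.0 ± 3.90 to 20.7 ± 1.14 FPKM (−0.41, and −0.24 without a call after scaling to the same median), while Phf1 went from 3.20 ± 0.538 to 4.82 ± 0.374 FPKM (0.48).

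Aebp2, whose protein joins JARID2 in a form of PRC2 that lacks the Polycomb-like proteins, was at 31.9, 36.7 and 30.4 FPKM in control and 56.3, 50.7 and 53.3 FPKM in shCTCF. It was higher in every shCTCF sample (log2 fold change 0.68, SE 0.087, adjusted p = 0.000204, limma), but its most abundant row alone gave −0.31 (adjusted p = 0.22, limma). On the few counts it had it was also higher (2.22, adjusted p = 3.62e-05, edgeR). Lcor, whose gene also encodes a partner of the Polycomb-like form of PRC2, went from 1.21 ± 0.137 to 1.90 ± 0.101 FPKM (0.40, adjusted p = 0.0157, limma).

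Of the 27 other PRC1 subunits 24 were tested, with 5 higher, 11 lower and a median of −0.16. That is 20.8% higher and 45.8% lower, against 28.8% and 44.2% of all genes tested. The lowest fold changes were those of L3mbtl2, a histone-binding subunit of the PCGF6 complex, with 16.9 ± 1.70 and 6.33 ± 0.504 FPKM (log2 fold change −1.29, adjusted p = 1.38e-05, limma), and of Dcaf7, a WD-repeat partner of variant PRC1, with 23.6 ± 1.09 and 9.52 ± 0.444 FPKM (−1.23, adjusted p = 4.3e-06, limma). Yaf2, which supports the ligase in variant PRC1, went from 18.6 ± 1.6 to 8.56 ± 1.21 FPKM (−1.04, adjusted p = 8.45e-05, limma). Of the 3 polyhomeotic genes, which cluster canonical PRC1, 1 was lower, 1 was higher and 1 did not pass on FPKM. Phc1 went from 12.2 ± 1.76 to 5.52 ± 0.241 FPKM (−1.01) and Phc2 from 28.3 ± 2.61 to 38.3 ± 1.36 FPKM (0.42), and Phc3 lay between 4.15 and 5.06 FPKM in control and between 3.86 and 4.26 FPKM in shCTCF (−0.16, adjusted p = 0.20, limma). On counts Phc2 did not pass (0.50, adjusted p = 0.0954, edgeR). Bcorl1, a partner of PCGF1, was higher with 3.31 ± 0.665 and 5.79 ± 0.297 FPKM (0.67, adjusted p = 0.002, limma). Its paralog Bcor went the other way, from 35.1 ± 3.25 to 23.0 ± 1.16 FPKM (−0.59, adjusted p = 0.000449, limma). E2f6, the DNA-binding subunit of the PCGF6 complex, was called higher at 0.34 (adjusted p = 0.0288, limma), yet its most abundant row gave −0.02 (adjusted p = 0.96, limma).

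The enzymes that oppose Polycomb and the subunits of the H2A deubiquitinase PR-DUB gave 4 higher and 6 lower genes of 12 tested out of 13, with a median of −0.39. As shares these are 33.3% higher and 50.0% lower, against 28.8% and 44.2% of all genes tested. The H3K27 demethylase genes went opposite ways. Kdm6a (UTX) went from 8.70 ± 1.15 to 12.6 ± 0.779 FPKM (log2 fold change 0.50, adjusted p = 0.004, limma) and Kdm6b (JMJD3) from 23.9 ± 3.67 to 15.0 ± 1.21 FPKM (−0.63, adjusted p = 0.0017, limma). Among PR-DUB partners, Mbd6 (−1.41), Hcfc1 (−1.11), Foxk1 (−0.87) and Foxk2 (−0.68) were lower, and Mbd5 (0.73) and Ogt (0.44) were higher. Asxl1 was also lower (−0.60, adjusted p = 0.000932, limma). Bap1 and Asxl2 did not pass on FPKM (−0.19 and −0.15, adjusted p = 0.15 and 0.15, limma). Hcfc1, an abundant scaffold protein with many partners, went from 45.3 ± 3.46 to 20.4 ± 0.0887 FPKM.

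Usp16, an H2A deubiquitinase gene, was listed at 0 FPKM in all 3 control samples and at 27.4, 27.5 and 29.2 FPKM in shCTCF. The count table nevertheless held 654, 134 and 621 Usp16 counts in control and 876, 801 and 1090 in shCTCF, so the 0 in the FPKM table is not absence of the transcript. On counts it was higher by a log2 fold change of 0.93 (SE 0.0926, adjusted p = 2.3e-06, edgeR), and its FPKM fold change is not given.

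**Figure D5:**
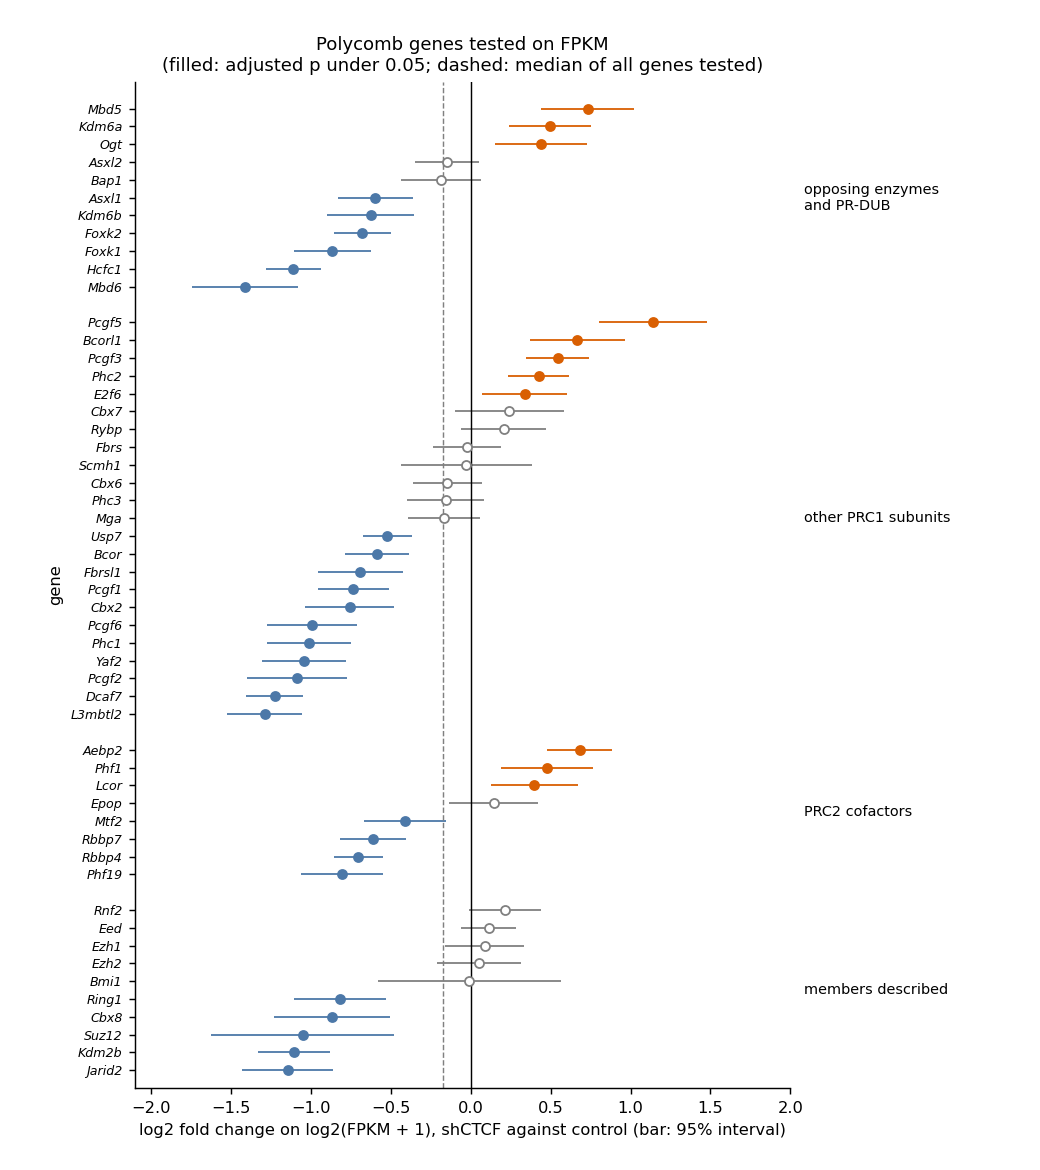
Log2 fold changes on log2(FPKM + 1), shCTCF against control, with 95% intervals, of the 10 members and most of the related Polycomb genes tested, grouped by list. Filled points passed an adjusted p of 0.05 (blue lower, orange higher), open points did not, the dashed line is the median of all genes tested at −0.17, and Usp16 is left out because the FPKM table lists it at 0 in control. Pcgf5 is the highest point at 1.14 and Mbd6 the lowest at −1.41.

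Genes known to carry the PRC2 mark in many cell types stayed near the bottom of the scale. Of 59 such genes, most of them Hox genes, 42 were listed at 0 FPKM in all samples and 57 were below 1 FPKM in every sample, so that 1 gene passed the filter and was tested. It passed through its shCTCF values alone and so had to differ. That gene, Wt1, a transcription factor gene of the urogenital tract, was listed at 0 FPKM with 0 counts in all controls. In shCTCF it was at 2.78, 1.89 and 1.78 FPKM with 115, 74 and 97 counts (log2 fold change 1.64 on log2(FPKM + 1)). Its p-value is not given, because the filter fixed the outcome. Hoxc13, named here after its values were seen, was at 0.0764, 0 and 0.0357 FPKM in control and 1.29, 0.909 and 1.32 FPKM in shCTCF. The summed level of all 59 genes was between 0.407 and 1.26 FPKM in control and between 2.94 and 4.69 FPKM in shCTCF, most of it from Wt1 and Hoxc13. Cdkn2b was listed at 0 FPKM in every sample, and Cdkn2a, its neighbour and a well-known PRC1 target, did not exceed 0.0935 FPKM.

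Several Polycomb subunit genes are known to be higher in dividing cells, and the 24 proliferation genes looked at differed strongly between the groups. Of these, 21 were lower and 3 higher, which is 87.5% and 12.5%, against 44.2% and 28.8% of all genes tested. The median log2 fold change of the list was −1.32. The summed level of its genes was between 1412 and 1440 FPKM in control and between 720 and 748 FPKM in shCTCF. Plk1 (−2.63), Cdc20 (−2.47) and Ccnb1 (−2.44), which act in mitosis, were the lowest. Genes that act in DNA replication went both ways. Mcm2 to Mcm7, subunits of the replicative helicase, were lower on FPKM by between −1.33 and −1.05, and Tyms, which makes thymidylate, was at −0.94. On counts Mcm2, Mcm3 and Mcm4 were also lower, and Mcm5, Mcm6 and Tyms were not tested. Mcm7 did not pass there, on 4 to 15 counts per sample (0.06, adjusted p = 0.89, edgeR). Rrm2 (1.29), Pcna (0.62) and E2f1 (0.30) were the genes called higher, although E2f1 did not pass on counts (0.13, adjusted p = 0.74, edgeR). Of the PRC2 core genes Suz12, Ezh2 and Eed, Suz12 was called lower on FPKM (−1.05), and Ezh2 and Eed did not pass (0.05 and 0.11). Whether the change in proliferation genes has a part in the lower levels of Suz12, Jarid2, Ring1, Cbx8 and Kdm2b was not tested.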

How the data were processed

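RNA was sequenced by the authors from 3 control and 3 shCTCF samples (stranded mRNA kit) and aligned to mm9 with HISAT2. The deposited counts are raw fragments per RefSeq accession (featureCounts 1.6.2), with fragments on more than 1 accession left out. The deposited FPKM were calculated by the authors with Cufflinks 2.2.1. Tool versions follow the file header and the submitters' processing notes. No value column was left without a sample (0 columns).

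Accessions were given symbols with a RefSeq table of GRCm38.p6, used for names only, and values were summed per symbol. Accessions without a symbol, with up to 0.603% of a sample's counts, stayed out of the tests. A gene entered the FPKM test when its mean reached 1 FPKM. That test was limma 3.58.1 in R 4.3.3 (eBayes, trend) on the log2(FPKM + 1) scale, which understates changes of low genes. Counts were tested with edgeR 4.0.16 (quasi-likelihood test, TMM, filterByExpr), and its SE is the absolute log2 fold change divided by the square root of F. CPM use library sizes scaled by TMM. All p-values were two-sided and adjusted (Benjamini-Hochberg) over all genes tested, with 0.05 as threshold. Paralog ratios were tested with an exact permutation test. The scripts were tested on simulated data. DESeq2 1.42.0, other scalings, pseudocounts and filters and leaving out each replicate were alternatives.

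A floor of 3 counts corresponded to 0.426 to 1.78 CPM and covers counting error only, since PCR copies were not told apart. The members and lists were chosen with earlier results of these data known. Named genes were the members, Ctcf, Pcgf2, the paralogs of Cbx8 and, per list, genes with an adjusted p under 0.05 and no overlap on FPKM, at most 5 per direction by log2 fold change (3 for Polycomb targets and proliferation genes). Phc3, Bcor, Bap1, Asxl1, Asxl2, Mcm2 to Mcm7, Tyms and the cell type markers were named after their values were seen. Promoter sequences are from the RefSeq promoter table. A gene of the PRC1 list is not reported here.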

Additional observations from a re-analysis of the deposited data

How the results depend on the processing

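On FPKM the members called lower were 5 in number in every alternative except the row with the highest mean and the fit without control replicate 2. The row with the highest mean gave 3, because Suz12 (−0.82, adjusted p = 0.055, limma) and Jarid2 (−0.79, adjusted p = 0.0919, limma) no longer passed. There 39.3% of all genes tested were called lower. The fit without control replicate 2 added Bmi1, with 47.8% of all genes tested called lower. Leaving out 1 sample at a time gave 5 to 6 lower and 0 higher. Scaling to the same median and quantile normalization each gave 2 higher (Eed and Rnf2), with 34.9% and 32.6% of all genes tested called higher. Testing each row on its own, an alternative chosen after seeing the data, gave 4 lower. On counts, library size alone gave 1 higher in place of 2, with 29.5% of all genes tested called higher in place of 34.8%. RLE size factors gave 3 higher (Ezh1 added, 0.28, adjusted p = 0.0324, edgeR), with 36.3% of all genes tested called higher. Leave-one-out gave 2 to 3 higher and 3 lower. The 3 came without control replicate 2, where 37.6% of all genes tested were called higher. Among Polycomb targets, 3 of 17 tested were higher with no filter, which is 17.6% against 23.7% of all genes tested. At a minimum of 5 FPKM no target was left to test. Leave-one-out gave 0 to 1, with 0 without shCTCF replicate 1, 2 or 3 because the mean of Wt1 then fell below the filter. Ezh1 over Ezh2 ranged from −0.072 to 0.26 over the leave-one-out settings, turning sign in 3 of them. Ctcf lay between −5.16 and −5.08 over the leave-one-out settings and between −6.44 and −4.42 over the other FPKM settings.

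Single genes that did not pass turned sign as follows. Ezh2 was −0.070 without control replicate 2, within −0.070 to 0.12 over leave-one-out. Bmi1 on FPKM was 0.16 and 0.14 after median and quantile scaling, and −0.32 to 0.16 over leave-one-out. Bmi1 on counts was 0.077 with DESeq2, 0.040 with RLE size factors, 0.0090 without a filter, 0.062 with the replicate block and −0.18 to 0.14 over leave-one-out. Cbx6 was 0.019 and 0.012 after median and quantile scaling. The called genes Aebp2 (−0.31) and E2f6 (−0.016) turned with the row of the highest mean. The cause was not tested. Of 779 values of single genes under an alternative, 728 changed neither sign nor call.

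The labels number the replicates 1 to 3 in both groups, but samples with the same number did not deviate together (r = −0.041, 0.018 and 0.0395 across genes, each over deviations from the group means), and not every sample correlated best with its own number, so the numbers were not taken as pairs. With the replicate number as a block, 5 members were lower on FPKM, and 3 lower and 2 higher on counts. In all, 7137 genes were called on FPKM against 7281 without the pairing, and 4889 on counts against 5074. Depth limited the count table most in control replicate 2, with 1686052 counts, where 3 counts stand for 1.78 CPM.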
